A study of Mus musculus with 24 samples.

Results

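In mouse embryonic stem cells whose CTCF could be degraded, 1862 accessible sites were open in the control line, fell below the limit of both peak lists after degradation, and were open again in both lines that overexpressed CTCF, wild-type or mutated. They were chosen by peak calls: a peak of the first control library without auxin counted when it overlapped, by at least 1 bp, a peak of the second control library, no peak of either control library with auxin, and a peak in all 4 libraries of the wild-type and mutated CTCF lines with auxin. Of 132912 peaks in the starting list, 111731 were shared by both control libraries. Among these, 9843 (8.81%) were lost with auxin and 1862 (1.67%) met the whole rule, which is 18.9% of the lost sites. Since these 8 libraries selected the sites, their calls there are given as a description and support nothing.

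All cells were of the E14 line, and their CTCF bore AID, the auxin-inducible degron, which marks a protein for destruction once the auxin IAA is present. The control line, labelled as an overexpression control, was sampled without IAA and with IAA for 12 h. The lines with overexpressed CTCF, wild-type or mutated, also received IAA for 12 h, and what the mutation changes is not given in the labels used here. A further set compared CTCF-AID cells in serum at 0 h and 12 h of IAA, although the growth protocol names serum-free medium for every library. In the remaining sets, CTCF-AID cells without IAA carried the hairpin shluci or 1 of 2 hairpins to Chd4, or likewise to Chd8, labelled shRNA1 and shRNA2. The assay was ATAC-seq, where a transposase cuts and tags open DNA, and it gave 24 libraries of 12 groups with 2 libraries each. The labels do not say whether these came from separate cultures, so p-values measure only the spread between these libraries.

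CTCF is a zinc-finger protein that binds a long, directional DNA motif. It halts the cohesin complex as cohesin extrudes chromatin loops, and it holds nucleosomes away from its sites, which makes them visible as narrow accessible sites. Many lie far from promoters. CHD4 is the remodelling ATPase of the NuRD complex, and CHD8 is another ATPase of the same CHD family.

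The sequences below show sites that ranked high within chosen kinds of restored site. Each is 54 bases from the GRCm38 reference, read 5′ to 3′ along the strand of the site, and capitals mark the 14 bases that matched the CTCF consensus with at most 1 mismatch. The first 6 are shown because they also had a peak in both serum libraries without IAA and in neither with IAA.

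Intergenic, nearest coding gene Ppp6c, site at chr2:39373315-39373328, minus strand: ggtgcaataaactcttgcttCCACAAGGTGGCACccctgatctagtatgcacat
Intergenic, near Uqcrfs1, site at chr13:30549063-30549076, minus strand: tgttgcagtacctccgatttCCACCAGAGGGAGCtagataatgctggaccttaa
Clasp1 intron, site at chr1:118498506-118498519, minus strand: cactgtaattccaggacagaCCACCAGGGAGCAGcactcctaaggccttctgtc
Arl13b intron, site at chr16:62832647-62832660, minus strand: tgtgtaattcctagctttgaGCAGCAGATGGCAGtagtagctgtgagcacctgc
Apaf1 intron, site at chr10:91034154-91034167, minus strand: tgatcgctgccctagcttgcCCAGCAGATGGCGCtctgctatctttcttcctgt
Kcnj10 intron, site at chr1:172357750-172357763, minus strand: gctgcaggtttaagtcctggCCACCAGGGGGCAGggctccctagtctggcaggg

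Uqcrfs1 encodes the Rieske iron-sulfur protein of respiratory complex III, Clasp1 a microtubule plus-end protein, Arl13b a GTPase of cilia, Apaf1 the scaffold of the apoptosome and Kcnj10 an inwardly rectifying potassium channel. The Apaf1 and Kcnj10 introns held a site without mismatch. The next 3 are shown for contrast: they met the same rule in serum-free medium but had a peak in all 4 serum libraries, with and without IAA.

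Intergenic, near Fshb, site at chr2:107083244-107083257, plus strand: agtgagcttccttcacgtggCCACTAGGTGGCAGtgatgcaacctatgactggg
Intergenic, near Siah1b, site at chrX:164066381-164066394, minus strand: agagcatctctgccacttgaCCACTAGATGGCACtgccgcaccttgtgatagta
Ppp2r3a intron, site at chr9:101182121-101182134, plus strand: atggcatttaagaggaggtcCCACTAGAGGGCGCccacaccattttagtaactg

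Each of these 3 matched the consensus in all 14 positions, but that did not mark the kind: a site without mismatch was in 29.7% of the 37 sites with the consensus and all 4 serum peaks and in 33.2% of the 322 with the serum loss. Fshb encodes the beta subunit of follicle-stimulating hormone, Siah1b a ubiquitin ligase and Ppp2r3a a regulatory subunit of protein phosphatase PP2A. The last pair lay within 500 bp of a coding start, which was rare for the restored sites.

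Lgi4 start, site at chr7:31059245-31059258, plus strand: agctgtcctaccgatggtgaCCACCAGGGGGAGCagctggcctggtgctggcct
Adat1 start, site at chr8:111990105-111990118, minus strand: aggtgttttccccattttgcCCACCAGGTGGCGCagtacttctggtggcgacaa

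Lgi4 encodes a secreted protein needed by Schwann cells, and Adat1 an adenosine deaminase that acts on transfer RNA. The strongest restored sites without a consensus at 2 mismatches are represented by 61 bases around the summit, in lower case because no part of them matched.

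Itga1 intron, chr13:114964398-114964458, plus strand: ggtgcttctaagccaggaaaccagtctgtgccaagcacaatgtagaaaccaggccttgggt
Pkm intron, chr9:59659864-59659924, plus strand: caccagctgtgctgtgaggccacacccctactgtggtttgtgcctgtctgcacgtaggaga

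Itga1 encodes an integrin alpha subunit and Pkm the muscle form of pyruvate kinase.

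The libraries differed in ways that touch these counts. Lists of the CTCF lines ran from 120137 to 155087 peaks, those of the Chd4 set from 80619 to 141742, those of the Chd8 set from 135410 to 166697, and those of the serum set from 59786 to 82502. Peaks were 283 to 456 bp wide (median of a list) for the CTCF lines, but 75 to 138 bp for both Chd sets. In 3 of the 8 libraries of the CTCF lines (control with IAA replicate 1, wild-type replicate 2 and mutated replicate 2) the highest −log10 p of a peak was 450.2 to 483.6, against 1744 to 1967 in the other 5, and its part in the results was not tested. Read depth is not stated in the lists, so the absence of a peak means a signal below a list's limit and not closed chromatin. Intervals given below are exact 95% binomial intervals (Clopper-Pearson) over sites, which cover counting error only.

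The restored sites were of middling strength. A site's strength is given as the percentile of the authors' −log10 p within a list, so that 100 is the strongest peak. Its median was 51.3 in the starting list and 52.1 in control replicate 2, 47.5 and 42.7 in the wild-type line, and 42.1 and 38.0 in the mutated line. Lists of unequal length do not share a scale, so these ranks cannot measure a change between lines. In the starting list the sites kept in all 8 libraries ranked higher, at 68.1, and those restored by neither line lower, at 20.1. The restored sites had a median width of 326 bp and a median fold over local background, as deposited, of 6.06, compared with 429 bp and 6.48 over all shared peaks.

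Few restored sites were close to the limit of a required list, but many other sites missed the rule by 1 control IAA list. The weakest −log10 q of a restored site over the 6 lists that had to hold it ran from 1.31, through a median of 5.65, to 65.8, and it was under 2 at 39 sites. Just outside stood 4921 sites that met everything except that 1 of the 2 control IAA lists held a peak there, with a median −log10 q of 6.55. Only 13.1% of those had the consensus. A control IAA peak lay within 200 bp of 78 restored sites (4.19%). The number of restored sites therefore rested on both IAA libraries: without control IAA replicate 1 it was 4005, and without control IAA replicate 2 it was 4640.

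The CTCF consensus was found at 782 of the 1862 restored sites, 42.0% (39.7% to 44.3%), on either strand and wholly within 250 bp of the summit. Over all shared peaks the share was 6.79%, and over those kept in all 8 libraries 4.27%. It was 33.1% (29.4% to 36.9%) for the 629 sites restored by the wild-type line only, 21.8% (16.8% to 27.6%) for the 238 restored by the mutated line only, and 23.5% (21.3% to 25.7%) for the 1500 restored by neither. The same letters in reversed order, not complemented, matched 0.269% of restored sites and 0.347% of shared peaks. A consensus without mismatch was present at 265 sites (14.2%), and one with at most 2 mismatches at 1169 (62.8%), a looser search that also matched 23.9% of shared peaks. With control IAA replicate 1 or 2 left out of the rule, the consensus share was lower, and its lowest value was 23.5%, without replicate 2.

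Across the lost sites the consensus share was higher where more of the 4 overexpression lists held a peak. It was 23.5% with none, 25.5% with 1, 26.2% with 2, 29.2% with 3 and 42.0% with all 4. Median strength in the starting list went the same way, from 20.1 through 26.1, 29.9 and 36.8 to 51.3. At like strength the order of restored sites and sites restored by neither line was mostly the opposite of that over all sites: restored sites had the lower share in each of the 6 bins up to percentile 60. Between percentiles 20 and 30 the consensus was at 16.3% of restored sites and 24.6% of those restored by neither line, and between percentiles 50 and 60 at 155 of 307 (50.5%) and 53 of 93 (57.0%). Between percentiles 60 and 70 restored sites had the higher share, with 206 of 328 (62.8%) and 16 of 36 (44.4%), and above that there were 2 sites restored by neither line. Sites restored by the wild-type line only had 17.4%, 52.3% and 68.6% in these 3 bins. Among restored sites the share ran from none of 80 in the weakest bin to 74 of 110 (67.3%) between percentiles 80 and 90. In the kept sites it stayed between 1.19% and 5.74% over all 10 bins.

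**Figure D1:**
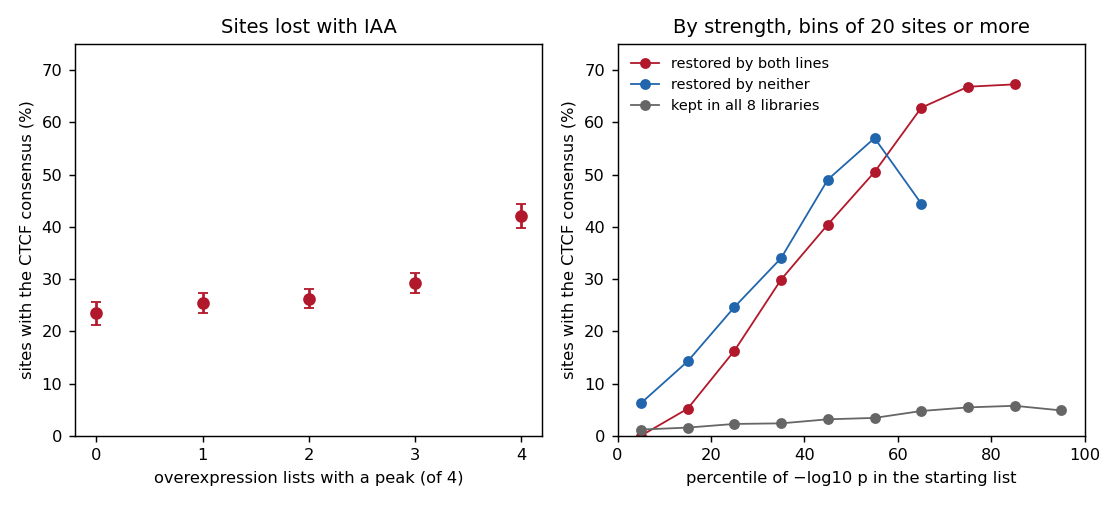
Left, the percentage of sites lost with IAA in the control line that held the CTCF consensus (y axis), by the number of the 4 overexpression lists with a peak (x axis), with exact 95% binomial intervals. Right, the same percentage by percentile of −log10 p in the starting list, in bins of 10 percentile units with at least 20 sites; the restored sites lie below those restored by neither line in each bin up to percentile 60, at 50.5% and 57.0% in the last of these, and above them in the next bin, at 62.8% and 44.4%, while kept sites stay at or under 5.74%.

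The consensus sites of restored peaks sat close to the summit and on a preferred side of it. Their centre lay a median of 35.5 bp from the summit, and 78.0% were within 50 bp, compared with 51.5 bp and 49.0% at kept sites. Other lost sites with the consensus were placed alike, with a median of 35.5 bp in each class, and 78.8% within 50 bp for those restored by the wild-type line only and 73.3% for those restored by neither. Read along the strand of the site, the summit was on the 3′ side at 524 of 782 (67%, 63.6% to 70.3%), and the share was 64.5% for sites on the plus strand and 69.6% for those on the minus strand. A single window, 30 to 50 bp to the 3′ side, held 39.5% of the summits, and its mirror window on the 5′ side 11%. The same window held 38.9% of summits at sites restored by the wild-type line only, 31.2% at those restored by neither line and 19.3% at kept sites. The summit was on the 3′ side in 68.8% (62.0% to 75%), 58.5% (53.2% to 63.7%) and 57.9% (56.3% to 59.6%) of these.

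The placement was seen in the other CTCF-line libraries and in serum without IAA, but not in the Chd sets. The window 30 to 50 bp to the 3′ side held 35.3% of summits in control replicate 2, 35.4% and 36.3% in the wild-type line, and 26.7% and 29.0% in the mutated line. Both libraries of the mutated line were thus below all 4 of the others. In serum without IAA it held 28.0% of 585 and 25.5% of 530 summits, and with IAA 8.99% of 89 and 14.4% of 118. In the 12 Chd libraries, whose peaks were narrow, it held 1.15% to 3.71%, less than its mirror window on the 5′ side in each library (3.76% to 6.91%), and the 3′ side as a whole held 51.9% to 56.9%. The part of peak width in this was not tested.

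**Figure D2:**
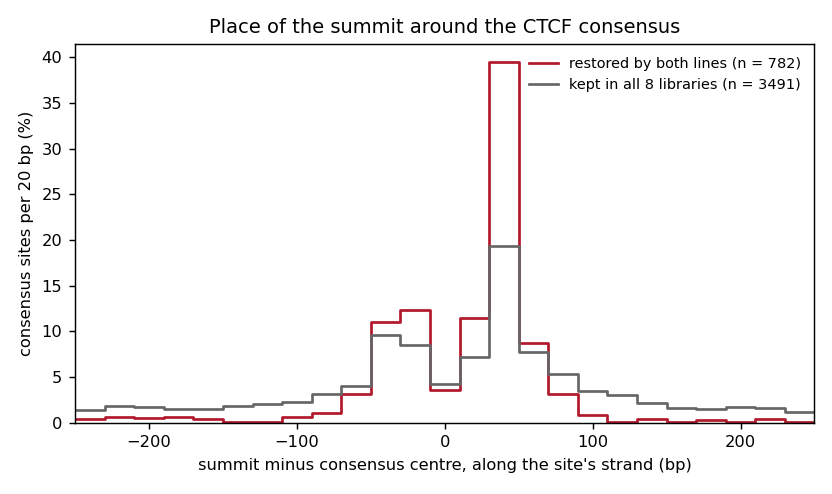
The place of the peak summit relative to the centre of the CTCF consensus in the starting list, in base pairs along the strand of the site (x axis, positive is the 3′ side), as the percentage of consensus sites in each window of 20 bp (y axis). The window from 30 to 50 bp on the 3′ side holds 39.5% of the 782 restored sites, above every other window and above the line for the 3491 kept sites.

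The bases of the 782 sites followed the consensus unevenly. Positions are counted from 1 at the 5′ end of the 14 bases. Position 2 was C in 99.7% and position 7 was G in 99.9%, whereas position 5, where C or T match, matched in 84.5%. At position 4, C made up 60.0% and G 37.9%. Bases outside the consensus were also skewed: T made up 44.8% at 3 bases before it, and A 44.2% at the second base after it, where kept sites had 31.5% and 32.2%. At 12 bases before it T made up 51.9%, compared with 33.6% in kept sites. The other lost sites had the same skews. For sites restored by the wild-type line only and by neither line, T made up 45.2% and 43.5% at 3 bases before the consensus and 46.6% and 45.7% at 12 bases before it, and A 47.1% and 46.3% at the second base after it.

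A CpG, the dinucleotide that DNA methylation targets, occupied positions 12 and 13 at 261 of the 782 sites (33.4%, 30.1% to 36.8%). It did so at 22.1% (16.7% to 28.4%) of consensus sites restored by the wild-type line only, at 21.3% (17.1% to 26.0%) of those restored by neither line and at 43.2% of kept ones. Restored sites above percentile 50 had it in 31.8% (28.0% to 35.7%) and those up to percentile 50 in 38.0% (31.2% to 45.1%). The sites restored by the wild-type line only had it in 17.2% and 28.3% (19.4% to 38.6%), and those restored by neither line in 18.8% and 21.9%. Kept sites had it in 44.9% (43.1% to 46.7%) and 33.7% (29.7% to 37.9%). The order of restored and kept sites thus differed between the stronger and the weaker sites, but their intervals overlapped at the weaker ones. There the interval of sites restored by the wild-type line only also overlapped that of restored sites. In serum without IAA a peak was called at 71.3% and 64.8% of restored sites with the CpG and at 76.6% and 69.3% of those without. With IAA it was called at 12.3% and 19.5% of those with the CpG and at 10.9% and 12.9% of those without. The loss pattern in serum, a peak in both libraries without IAA and in neither with it, was held by 34.5% and 44.5%.

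Restored sites lay away from gene starts. Only 58 (3.11%) had the summit within 500 bp of an annotated start, 23 of them coding, whereas 15.2% of shared and 19% of kept peaks did. The share was 3.20% for sites restored by neither line, 3.82% for those restored by the wild-type line only and 6.30% (15 of 238) for those restored by the mutated line only. Introns held 50.3% of the restored sites, exons 9.08% and intergenic sequence 40.6%, and the median distance to a start was 13002 bp. A soft-masked repeat covered the summit at 11.3%, compared with 13.6% of shared peaks. Mean GC content within 100 bp of the summit was 51.5%, compared with 53.1%.

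Most of the 10 short words searched for other factors were less frequent in restored sites with the consensus than in shared peaks, a description with no test. Each word was searched on both strands within 250 bp of the summit. The Klf word GGGTGTGG was in 3.20% of restored sites with the consensus, 6.20% of those without it and 8.77% of shared peaks. The octamer ATGCAAAT, the word of Pou5f1, was in 2.05%, 4.07% and 4.59%, and the Esrrb word TCAAGGTCA in 0.767%, 1.48% and 2.76%. The Nrf1 word GCGCATGC was in 0.256%, 1.20% and 1.87%, the Ets word CCGGAAGT in 0.639%, 0.926% and 1.93%, the E-box CACGTG in 6.39%, 10.6% and 9.50%, and the Sox word ATTGTT in 17.3%, 21.9% and 22.2%. The other 3 words were at a like or higher share. The Yy1 word AAGATGGC was in 4.60%, 3.89% and 3.72%. The AP-1 word TGANTCA was in 15%, 17.2% and 15.1%, and the Nfy word CCAAT in 48.3%, 46.9% and 48.1%. A word is a match of letters and not a bound site.

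Restored sites with the consensus were spread along the chromosomes. The median gap between neighbours on 1 chromosome was 1926595 bp over 762 pairs. Within 100 kb there were 51 pairs, of which 11 had sites facing each other, the arrangement known from loop anchors, 20 facing away and 20 on the same strand. Pairs were not counted among other sites with the consensus, so these numbers do not set the restored sites apart.

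The serum libraries, which the rule did not use, held a peak at many restored sites before IAA and at few after it. A peak was called at 52.4% and 46.7% of restored sites without IAA and at 13.6% and 17.0% with IAA. The means were 49.6% ± 4.03 and 15.3% ± 2.43 (SD, n = 2 each), a difference of −34.3 percentage points, which exceeded the spread within groups of 3.32. The exact permutation test (two-sided) gave p = 0.333, the smallest that 2 libraries against 2 allow (0.40 after Benjamini-Hochberg adjustment over 5 tests). All shared peaks differed in the opposite direction, with 46.9% and 41.9% without IAA and 47.1% and 52.0% with it. Relative to them the restored sites were 5.17 points higher without IAA and 34.3 points lower with it, a difference of −39.4 with a spread of 0.843 (exact p = 0.333, adjusted 0.40). Without control IAA replicate 1 or 2 in the rule, which then took in 4005 or 4640 sites, the difference of the restored sites was −17.2 or −14.3 points, and relative to shared peaks −22.4 or −19.5.

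Site by site, 487 restored sites (26.2%, 24.2% to 28.2%) had a peak in both serum libraries without IAA and in neither with IAA, a pattern held by 2.23% of all shared peaks. The opposite pattern was held by 18 (0.967%), compared with 3.55% of shared peaks. No peak was called in any of the 4 serum libraries at 644 (34.6%), compared with 36.4% of shared peaks, and a peak in all 4 at 93 (4.99%), compared with 32.2%. Of the sites restored by the wild-type line only, 94 (14.9%) had the loss pattern in serum, and of those restored by neither line 104 (6.93%). The pattern needs a peak without IAA, and these 2 classes had a mean of 30.4% and 19.5% there, compared with 49.6% of restored sites. As a ratio of the mean with IAA to that without, restored sites stood at 0.309. Those restored by the wild-type line only stood at 0.319 and those restored by neither line at 0.457.

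Restored sites with the consensus differed more in serum than those without it. Those with it had a peak in 74.8% and 67.8% without IAA and in 11.4% and 15.1% with IAA, a difference of −58.1 points. Those without it had a peak in 36.2% and 31.5% and in 15.2% and 18.4%, a difference of −17.0 points. The surplus of sites with the consensus over sites without it was 37.4 points ± 1.63 without IAA and −3.57 ± 0.331 with IAA, a difference of −41.0 with a spread of 1.18 (exact p = 0.333, adjusted 0.40). The loss pattern in serum was held by 322 of 782 sites (41.2%) with the consensus and by 165 of 1080 (15.3%) without it. Among all shared peaks with the consensus it was held by 17.3%.

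**Figure D3:**
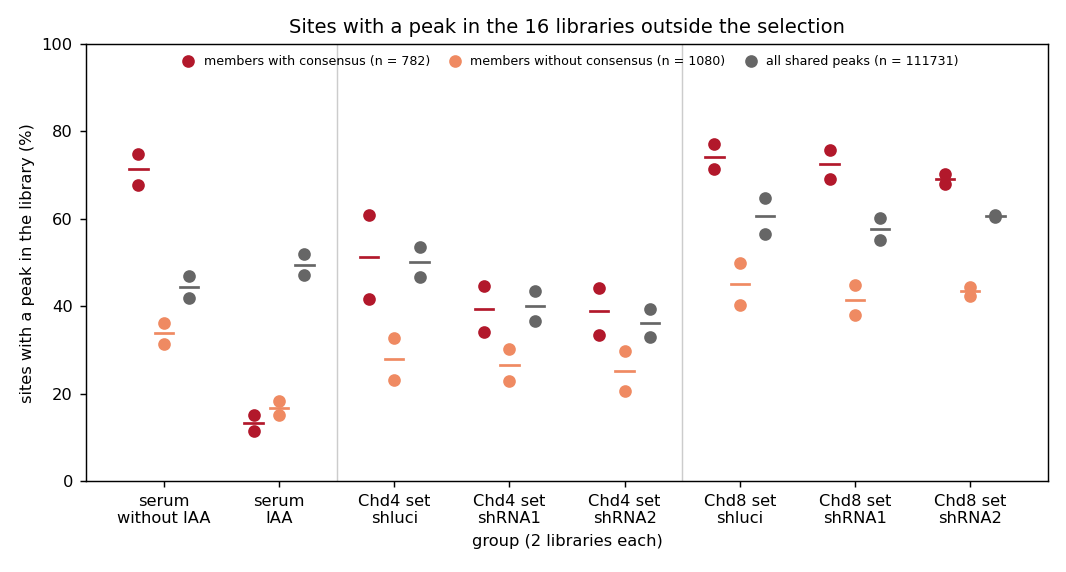
The percentage of sites with a peak (y axis) in each of the 16 libraries that did not select them, by group (x axis), for restored sites with and without the consensus and all shared peaks; dots are libraries and bars the mean of 2. Restored sites with the consensus go from 74.8% and 67.8% in serum without IAA to 11.4% and 15.1% with IAA, whereas all shared peaks do not go down.

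Among sites without the consensus the serum difference was present at stronger sites, while weaker ones had one only relative to all shared peaks of that range. Above percentile 50 of the starting list, 384 sites without the consensus had a peak in 60.7% ± 4.79 without IAA and 13.3% ± 2.58 with IAA (SD, n = 2 each). The 582 sites with the consensus in that range had 76.3% ± 5.10 and 13.4% ± 1.94. Up to percentile 50, the 696 sites without the consensus had a peak in 19% ± 2.54 without IAA and 18.8% ± 2.13 with IAA, a difference of −0.287 points within a spread of 2.35. All shared peaks of that range had 20.4% ± 3.34 and 27.3% ± 3.71, a difference of 6.87 points. The 200 weaker sites with the consensus had 56.8% ± 4.60 and 12.8% ± 4.60. The difference between sites with and without the consensus was −15.5 points above percentile 50 and −43.7 points up to it.

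A looser reading of the motif gave the same order. The loss pattern in serum was held by 40.4% of sites with no mismatch, 41.6% with 1, 32% with 2 and 5.92% of the 693 sites with 3 or more mismatches. These last were the weakest, with a median percentile of 31.1. All 693 had a peak in 20.8% ± 2.45 without IAA and 17.5% ± 1.94 with IAA (SD, n = 2 each). The 155 of them above percentile 50 had 43.2% ± 5.47 and 15.8% ± 2.28, and the 538 up to percentile 50 differed in the opposite direction, with 14.3% ± 1.58 and 18% ± 1.84. That difference of 3.72 points was below the 6.87 points of all shared peaks up to percentile 50.

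**Figure D4:**
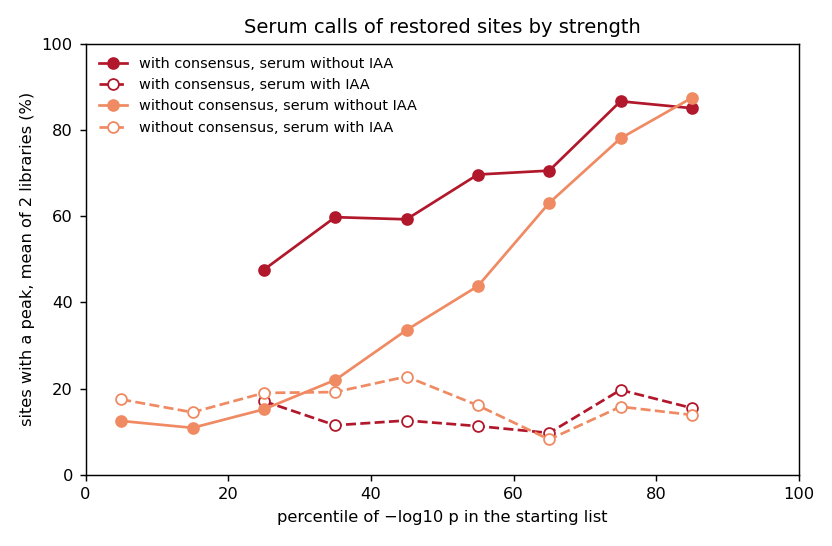
The percentage of restored sites with a peak in serum (y axis, mean of 2 libraries) by percentile of −log10 p in the starting list (x axis), in bins of at least 20 sites; filled symbols and full lines are without IAA, open symbols and broken lines with IAA. Sites without the consensus go from 12.5% in the weakest bin to 87.5% between percentiles 80 and 90 without IAA, and lie between 8.2% and 22.8% with IAA.

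The 10 sites with both the consensus and the loss pattern in serum that ranked highest in the rule's lists can be followed library by library. The site near Ppp6c, which encodes the catalytic subunit of protein phosphatase 6, stood 146759 bp from that gene in a peak at chr2:39373096-39373470. Its −log10 q was 67.9 in both control libraries without IAA, 50.1 and 45.8 in the wild-type line, 42.3 and 34.3 in the mutated line, and 20.9 and 17.1 in serum without IAA. Neither the control line nor the serum cells had a peak with IAA. A peak was called in all 6 libraries of the Chd8 set and in 3 of the 6 of the Chd4 set.

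The Kcnj10 intron peak, at chr1:172357380-172357957, had −log10 q of 43.6 and 50.8 in the control line, 22.3 and 21.7 in the wild-type line, 32.2 and 26.1 in the mutated line, and 9.78 and 7.41 in serum without IAA. It was called in all 12 Chd libraries, from 3.07 to 36.7. The Apaf1 intron peak at chr10:91033897-91034357 had 44.9 and 30.9 in the control line, 22.8 and 29.6 in the wild-type line, 55.8 and 24.5 in the mutated line, and 11.3 and 12.6 in serum without IAA. It was missing from 2 of the 6 Chd4 libraries and 1 of the 6 Chd8 libraries. At each of these 3 sites the control line with IAA and the serum cells with IAA, the groups for which the site was chosen, were the only groups without a peak in either library.

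The Uqcrfs1 site, 3665 bp from that gene's start, differed from the others between sets. Its peak at chr13:30548920-30549138 had −log10 q of 34.9 and 33.8 in the control line and 8.61 and 5.01 in serum without IAA. No library of the Chd4 set and neither shluci library of the Chd8 set had a peak, and all 4 Chd8 shRNA libraries did, at 2.93 to 4.60. It was the only one of the 10 sites of this kind with that order in the Chd8 set.

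The other 6 were the introns of Clasp1, Arl13b and Opn5, a light-sensing opsin, the intergenic site 18108 bp from Slc46a2, a solute carrier, and 2 sites 24305 bp and 47638 bp from 4930564D02Rik. In the control line without IAA their −log10 q ranged from 30.3 to 80.1. In serum without IAA it ranged from 3.79 to 23.1. Slc46a2 and Opn5 had a peak in all 12 Chd libraries, and the site 47638 bp from 4930564D02Rik in 4 of them.

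Among restored sites with the consensus, 37 (4.73%) had a peak in all 4 serum libraries, compared with 29.0% of shared peaks with the consensus. The site near Fshb, in a peak at chr2:107083214-107083532, had −log10 q of 18.6 and 14.5 in serum without IAA and 3.15 and 6.0 with IAA. In the control line with IAA it had none, after 43.9 and 32.7 without IAA. The Siah1b site had 21.7 and 9.42 in serum without IAA and 8.03 and 3.23 with IAA, and the Ppp2r3a intron 11 and 18.5, then 3.64 and 7.78. Within their own lists, which differ in length, the Fshb peaks stood at percentiles 84.6 and 81.9 without IAA and 15.2 and 41.9 with it. These ranks were lower with IAA, but ranks from separate lists do not measure the size of a change. The sites near Smim20, a factor of mitochondrial complex IV assembly, and near Akr1c18, a steroid dehydrogenase, had 5.79 and 9.01, and 10.1 and 10.5, with IAA.

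The 5 strongest sites without a consensus at 2 mismatches had peaks in unlike sets of libraries. The Itga1 intron peak at chr13:114964206-114964536 had −log10 q of 82.7 and 58.1 in the control line and 19.8 and 8.74 in serum without IAA, with none in serum with IAA. It was absent from the Chd4 set and called in all 6 Chd8 libraries at 1.33 to 6.25. The Pkm intron peak at chr9:59659748-59659996 had 53.3 and 49.2 in the control line and 14.3 and 12.5 in serum without IAA, and 1 of the 2 serum libraries with IAA had a peak of 4.93. It was in no Chd library. The site 120642 bp from Lrig3 had no serum peak but was in all 4 Chd4 shRNA libraries, at 6.23 to 14.4, and in 1 of the 2 shluci libraries, at 1.35. The Me1 intron (Me1 encodes cytosolic malic enzyme) and the site 9963 bp from Arl8b, a lysosomal GTPase, also each had a peak in 1 serum library with IAA.

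Few restored sites were at coding starts, and those that ranked highest had peaks in unlike sets of libraries. At Adat1, where the summit was in an intron 257 bp from the start, −log10 q was 32 and 34.7 in the control line, 9.93 and 12.7 in the wild-type line, 12.8 and 16.9 in the mutated line, and 21.8 and 23.5 in serum without IAA. One serum library with IAA had a peak of 3.72. All 12 Chd libraries had one, at 4.56 to 33.4. Psg16, which encodes a pregnancy-specific glycoprotein, had 28.1 and 22.1 in the control line, 8.67 and 5.99 in serum without IAA and none in serum with IAA. Its peak was in 11 of 12 Chd libraries.

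Apol8, an apolipoprotein L gene, Pcp4, which encodes a calmodulin-binding protein of Purkinje cells, and 1700013F07Rik also had both serum libraries without IAA and neither with IAA. Lgi4 had 1 of the 2 without IAA. Mus81, which encodes a DNA endonuclease subunit, had no consensus at 2 mismatches, and had a peak in both serum libraries without IAA and 1 with IAA. Grpr, the receptor of gastrin-releasing peptide, had no serum peak and was called in both shluci libraries of each Chd set.

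The starts of Slc35b2 and Gpx6 had peaks nowhere outside the lists that selected them. Slc35b2 encodes a sulfate donor transporter of the Golgi, and Gpx6 a glutathione peroxidase. The Slc35b2 peak, whose summit lay 2 bp from the start in the untranslated region, had −log10 q of 28.0 and 26.1 in the control line, 13.4 and 15.4 in the wild-type line and 14 and 10.4 in the mutated line. The Gpx6 peak had 24.7 and 17.8, 14.4 and 20.4, and 21.3 and 12.0. Both summits were in soft-masked repeat sequence. At Slc35b2 the nearest consensus match was 230 bp from the summit, and Gpx6 had none at 2 mismatches. No peak in any of the 16 outside libraries was the state of 158 restored sites (8.49%), close to the 8.18% of all shared peaks. It was the state of 16 sites (2.05%) with the consensus and 142 (13.1%) without it.

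Listed genes of stem cells and of CTCF biology had few restored sites nearby. Within 20 kb of the starts of the 39 annotated clustered Hox genes there were 100 shared peaks and no restored site, and within 20 kb of 15 genes for CTCF and cohesin 64 shared peaks and none. Imprinted genes had 2 of 106 shared peaks (1.89%), pluripotency genes 1 of 128 (0.781%), lineage regulators 1 of 85 (1.18%) and CHD remodeller genes 2 of 58 (3.45%), against 1.67% of all shared peaks. These shares rest on at most 2 sites a list and do not set the lists apart. None of these 6 sites held the consensus with at most 1 mismatch.

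The Nanog site lay 12559 bp from the start of this pluripotency factor. Its closest match, CCGGTAGGGGGAGC on the minus strand at chr6:122720158-122720171, had 2 mismatches. Its −log10 q was 20.2 and 20.3 in the control line, 12.4 and 12.0 in the wild-type line, 19.7 and 13.5 in the mutated line, and 10.8 and 3.9 in serum without IAA, with no peak in serum with IAA. It was called in all 6 Chd8 libraries, in both Chd4 shluci libraries, at 2.53 and 6.96, in both Chd4 shRNA1 libraries, at 7.73 and 3.48, and in neither Chd4 shRNA2 library.

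The Zim1 site, in an intron 241 bp from the start of this imprinted zinc-finger gene, had 37.5 and 10.8 in the control line. It was called in all 12 Chd libraries, from 3.17 to 24.0, and in no serum library. The Chd1 intron site, in the gene of another CHD remodeller, had 15.1 and 10.1 in the control line and 7.05 and 4.03 in serum without IAA, with none in serum with IAA, and it too was called in all 12 Chd libraries. The Meg3 site, in an exon of this imprinted noncoding RNA, was weak, at 4.83 and 5.65 in the control line, and was called in no outside library. The Tfap2c site, 10412 bp from a trophoblast and germ cell regulator, was at 5.59 and 6.06. The site counted for Chd5 was 19552 bp from its start and 491 bp from that of Rnf207, and it had 1 serum peak without IAA, at 7.89.

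**Figure D5:**
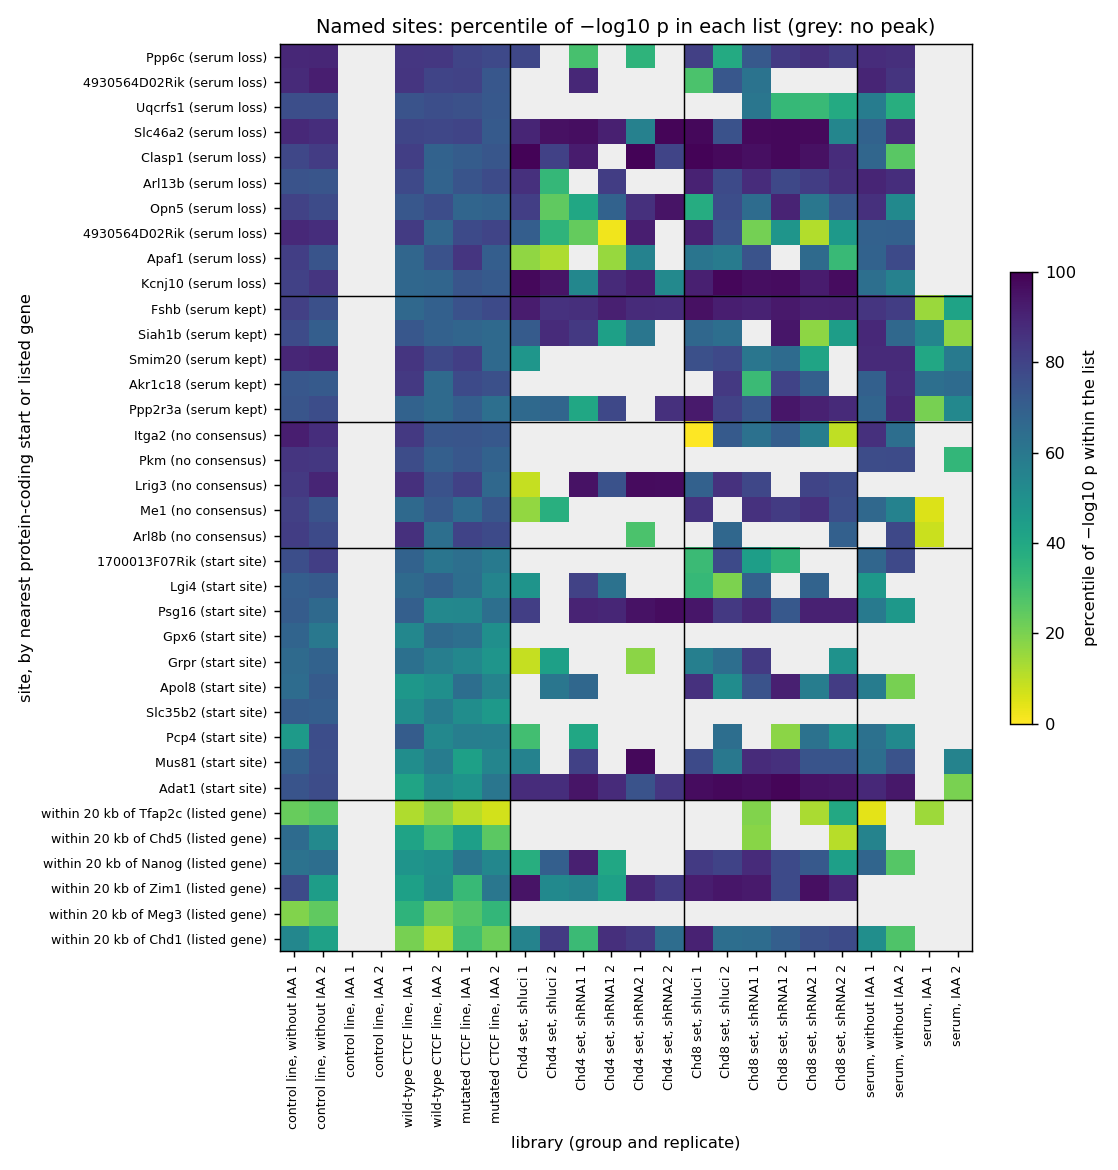
Percentile of the authors' −log10 p within each list (colour scale) for the 36 named sites (y axis, by nearest protein-coding start or listed gene, with the reason for naming) in all 24 libraries (x axis); grey marks no peak. The 2 grey columns at the left are the control line with IAA, where the rule allowed no peak, the 10 sites named for serum loss are grey in both serum libraries with IAA, and Slc35b2, Gpx6 and Meg3 are grey in all 16 outside libraries.

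In the Chd4 set all shared peaks were called less often with the shRNAs. Restored sites, like those restored by the wild-type line only or by neither line, differed by fewer points. Restored sites had a peak in 44.6% and 31% with shluci, 36.3% and 27.6% with shRNA1 and 35.8% and 26.0% with shRNA2. The mean difference of −6.36 points was within the spread of 7.79. Restored sites with the consensus differed by −12.1 points and those without it by −2.18. Sites restored by the wild-type line only differed by −4.53 points and those restored by neither line by −2.90. All shared peaks differed by −12.0 points, and those up to percentile 50 by −4.11. Relative to all shared peaks the restored sites stood at −12.4 points ± 4.71 with shluci (n = 2) and −6.76 ± 2.21 with the shRNAs (n = 4). The difference was 5.64 with a spread of 3.68. The exact permutation test gave p = 0.0667, the smallest this design allows, and 0.333 after adjustment.

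The length of the peak list moved with these values, and its part in the result was not tested. Replicate 1 of each Chd4 group had the longer list, of 135583 to 141742 peaks, and replicate 2 of 80619 to 93091. Within replicate 1 the difference between restored sites and shared peaks was 3.61 points, and within replicate 2 it was 7.67. Without shluci replicate 2 it was 2.31, and without shluci replicate 1 it was 8.97. Above percentile 50 it was 7.51 and up to percentile 50 it was 1.57. As a ratio of shRNA to shluci, restored sites stood at 0.832, those with the consensus at 0.763 and those without it at 0.922. Sites restored by the wild-type line only stood at 0.803, those restored by neither line at 0.808 and all shared peaks at 0.761. A peak in both shluci libraries and none of the 4 shRNA libraries was found at 53 restored sites (2.85%), compared with 3.70% of shared peaks, and the reverse at 16 (0.859%), compared with 0.526%.

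In the Chd8 set restored sites had a peak in 53.3% and 61.3% with shluci, 57.9% and 51.0% with shRNA1 and 54.1% and 54.4% with shRNA2. Relative to all shared peaks the difference was −1.44 points, within a spread of 1.47 (exact p = 0.40, adjusted 0.40). By library, restored sites minus shared peaks stood at −3.33 and −3.38 points with shluci, −2.16 and −4.13 with shRNA1, and −6.70 and −6.20 with shRNA2. Both shRNA2 libraries were thus below shluci, while the shRNA1 libraries lay on either side of it. For this value the hairpins were not tested apart. A peak in both shluci and no shRNA library was found at 16 restored sites (0.859%), compared with 0.865% of shared peaks, and the reverse at 10 (0.537%), compared with 0.491%. Of the 782 sites with the consensus, 1 had the first pattern. With each of the 3 hairpins, sites with the consensus were called more often than sites without it, at 67.9% to 77.1% against 38.0% to 49.9% over the 6 libraries.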

How the data were processed

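Each library had a deposited narrowPeak list. Reads were trimmed with Trim Galore, aligned with Bowtie2 to mm10 and peaks were called with MACS2, per the submitters' processing notes, with no versions or settings given; deepTools is also named there. The deposited fold is a ratio of summit signal to local background, and the deposited scores are −log10 p and −log10 q; all 3 are the authors' values, and a site's values in several lists are set side by side as a description, since lists do not share a scale. Every peak fitted the GRCm38 chromosome lengths.

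From these were computed overlaps of at least 1 bp, matches to the CTCF consensus of 14 bp within 250 bp of a summit, distances to GENCODE vM21 starts, and the share of sites with a peak in each library. Shares were compared by two-sided exact permutation of library labels in the 16 libraries outside the rule, with Benjamini-Hochberg adjustment over 5 tests. The smallest p is 0.333 for 2 libraries against 2 and 0.0667 for 2 against 4. The overlap and motif steps were tested on simulated data. Python 3.11.15, NumPy 2.4.6, pandas 2.3.3, SciPy 1.17.1 and matplotlib 3.10.9 were used.

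The members, gene lists and words were chosen with earlier results of these data known. Sites were named by rank of their lowest percentile over the 6 lists with a required peak: 10 with the consensus and the serum loss pattern, 5 with the consensus and a peak in all 4 serum libraries, 5 without a match at 2 mismatches, 10 at coding starts, and all 6 within 20 kb of a listed gene. Sites on chromosomes 18 and Y were not named. Alternatives covered list length, overlap, threshold, motif limits and each left-out library; the split at percentile 50 was chosen after seeing the data.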

Additional observations from a re-analysis of the deposited data

Results flagged for a closer look

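In the Chd8 set the 2 hairpins stood on opposite sides of shluci in the surplus of restored sites with the consensus over those without it. The difference from shluci was 1.77 percentage points with shRNA1 and −3.60 points with shRNA2. The surplus was 31.2 and 27.2 points in the shluci libraries, 30.8 and 31.1 with shRNA1, and 27.8 and 23.4 with shRNA2. Both shRNA1 libraries were thus above the shluci mean and both shRNA2 libraries below it, but 3 of these 4 lay within the range of the 2 shluci libraries. The difference between the hairpins was not tested.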

How the results depend on the processing

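None of the 5 tested differences, with hairpins pooled, reversed its direction under any alternative run. With Chd8 shRNA1 alone the difference against shared peaks was 1.17 points within replicate 1 and −0.748 within replicate 2. In serum the sites with 3 or more mismatches differed by −3.25 points in all and 3.72 up to percentile 50. The 1862 restored sites became 2064 to 4640 when 1 library was left out, the largest numbers coming without control IAA replicate 1 (4005) or replicate 2 (4640). The consensus share of 42.0% was 50.2% with lists reduced to the shortest of their set, 37.9% with an overlap of at least 50% of the control peak, 14.2% without mismatch, 62.8% with 2 mismatches, 29.9% within 50 bp of the summit, and 23.5% to 39.6% without 1 library. Members lost in serum numbered 304 with the 50% overlap and 495 to 677 without 1 library. The promoter share was 4.10% with the 50% overlap, 5.85% within 1000 bp and 2.98% to 4.38% without 1 library. The repeat share was 6.87% when a repeat had to cover at least 50% of 150 bp on each side, and 10.8% to 13.8% without 1 library. The looser or stricter search set these motif, promoter and repeat shares by construction; for the other values the cause was not tested. Without 1 library the serum difference ranged from −37.1 to −14.3 points, that between sites with and without the consensus from −51.0 to −39.9, that against shared peaks from −40.2 to −19.5, the Chd4 difference from 2.31 to 8.97 and the Chd8 difference from −2.32 to −0.386. With a replicate block the serum difference was −34.3 (exact p = 0.500) and the Chd4 difference 5.64 (exact p = 0.111), and no call changed; replicate differences of 2 groups correlated at −0.0405 to 0.0309 over shared peaks, so equal numbers were not taken as pairs, although the longer Chd4 list was replicate 1 with all 3 hairpins. Reduced lists kept 1327 of their 1411 sites in common with the 1862, and the 50% overlap 1073 of 1489. Unknown read depth limits what a missing peak shows.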
